A study of Mus musculus with 16 samples.

Results

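The genes described here are 34 markers of non-neural cells: 13 endothelial genes, 2 genes of mural cells (the pericytes and smooth muscle cells of vessels), 5 fibroblast genes, 12 microglial genes and 2 genes of antigen presentation. They were chosen as a list of symbols, with earlier results of these data known. The table of silenced cultures held 55304 symbols and that of basal cultures 26371. All 34 had a row in the silenced table and 24 had one in the basal table. The study knocked down Nup153, a protein of the nuclear pore basket, in cultured cortical neurons with short hairpin RNAs delivered by adeno-associated virus (AAV) and sequenced poly(A) RNA. The cells came from C57/BL6 embryos at day 17.5 to 19.5 of gestation, and the question was how widely Nup153 affects gene programmes in mature neurons. One litter was pooled for each biological replicate.

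Silenced cultures carried AAV-shNup153-2 (3 libraries) or AAV-shControl (3 libraries), had tetrodotoxin at 1 to 2 µM from day 12 in vitro for 24 hours, which blocks sodium channels, and had D-AP5 at 100 µM for 6 hours, which blocks NMDA receptors. Basal cultures had no silencing agents and carried AAV-shNup153-1 (2 libraries used), AAV-shNup153-2 (2 libraries used) or AAV-shControl (4 libraries). In all 5 groups infection began at day 8 in vitro and RNA was taken at day 13, so the controls were infected as well. The labels do not give the promoter of the hairpins or which cells the virus enters. Per the labels, only samples with sufficient knockdown were sequenced, and groups were taken from the sample titles because the descriptions of the knockdown samples name the control virus.

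Endothelial cells line vessels and are kept alive by vascular endothelial growth factor (VEGF), which signals through the receptor encoded by Kdr, while the receptor encoded by Flt1 binds the same ligands and limits that signal. Mural cells wrap vessels, fibroblasts of the meninges and vessel walls deposit fibrillar collagens, and microglia are the resident macrophages of the brain and depend on the receptor encoded by Csf1r. In cultures of dissociated embryonic cortex any of these cells can be carried along with the neurons, which is why their markers are read as a measure of culture content. In bulk RNA, fewer cells of a type and less RNA per cell cannot be told apart.

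Libraries held 26863535 to 56299817 counts. Nup153 checked the labels: it averaged 11.0 ± 2.23 CPM (counts divided by the library total and scaled to 1000000) in silenced shNup153-2 cultures and 57.0 ± 4.58 CPM in silenced shControl cultures (SD, n = 3 each). At basal state it averaged 23.2 ± 8.93 CPM with shNup153-1 and 12.5 ± 0.994 CPM with shNup153-2 (SD, n = 2 each), against 72.9 ± 21.2 CPM with shControl (SD, n = 4). The shNup153-1 columns of the basal table were out of register with the gene symbols from line 16420, so comparisons with that hairpin used lines 1 to 16399, which hold all 24 members of that table. Cell type lists that set the members in context are given where they bear on a result.

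Against neurons, the markers were rare. Divided by exon length, the median neuronal marker stood at 78.0 CPM per kb in silenced shControl cultures and 81.8 in basal shControl cultures. The median over the 9 endothelial members with a row in both tables was 0.0312 CPM per kb in silenced shControl cultures and 0.121 in basal shControl cultures. The 5 fibroblast members had medians of 0.123 and 0.127 and the 6 microglial members 0.0391 and 0.0286 CPM per kb in silenced and basal shControl cultures. Astrocyte markers had medians of 4.84 and 15.4 CPM per kb and oligodendrocyte lineage markers 2.83 and 0.973 in the same pair of groups. The mural pair had medians of 0.192 and 0.568 and the antigen presentation pair 0.415 and 3.42 CPM per kb, the last above the oligodendrocyte lineage median of basal shControl cultures. Egfl7 (4.61) and Cd68 (2.92) also stood above that median at basal state, so the list medians do not speak for every member.

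**Figure D1:**
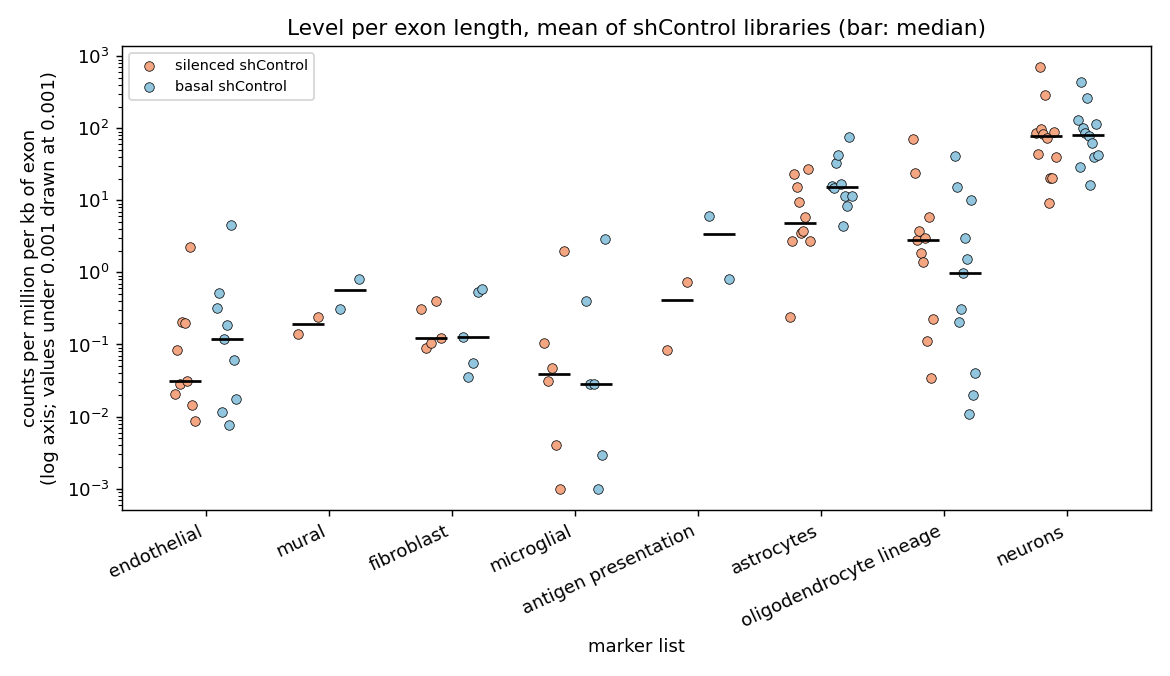
Level of each gene per kb of exon (CPM per kb, log axis) as the mean of the silenced shControl libraries (orange) and the basal shControl libraries (blue), for the members in 5 lists and for astrocyte, oligodendrocyte lineage and neuronal markers; bars are list medians. Neuronal medians of 78.0 and 81.8 stand above every member, of which H2-Ab1 at basal state was highest at 6.02.

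The 10 members with no row in the basal table had few or no counts in the silenced libraries. Some other markers of the same cell types had more there, such as Pecam1 (31 to 59 counts per library), Egfl7 (178 to 298) and Cd68 (66 to 105). Cdh5 (VE-cadherin of endothelial junctions), Ly6c1 (a surface protein of brain endothelium) and Tmem119 (a microglial surface protein) had 0 counts in all 6 silenced libraries, where a count of 0 allows up to 0.0136 CPM over the libraries together (3 counts, counting error only). Reads of Ly6c1 could also fall to its near-identical neighbour Ly6c2, so its 0 is uncertain. Cx3cr1, the microglial receptor for fractalkine, had 1 count over the 6 silenced libraries, and Cldn5, the tight junction protein of the blood-brain barrier, had 3. Tie1, an orphan receptor of the angiopoietin system, had 4 counts. The complement genes C1qa, C1qb and C1qc, which microglia transcribe in the brain, had 11, 3 and 14 counts, and the integrin gene Itgam had 10, with 68.7% of its exon length shared with a same-strand gene model. These 10 members had no row in the basal table and held 46 counts in all across the silenced libraries. Of the silenced rows with no counterpart in the basal table, 97.6% had 10 counts or fewer in sum, against 9.45% of those with one. No source states how rows were dropped from the basal table, and no basal level is given for these genes.

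**Figure D2:**
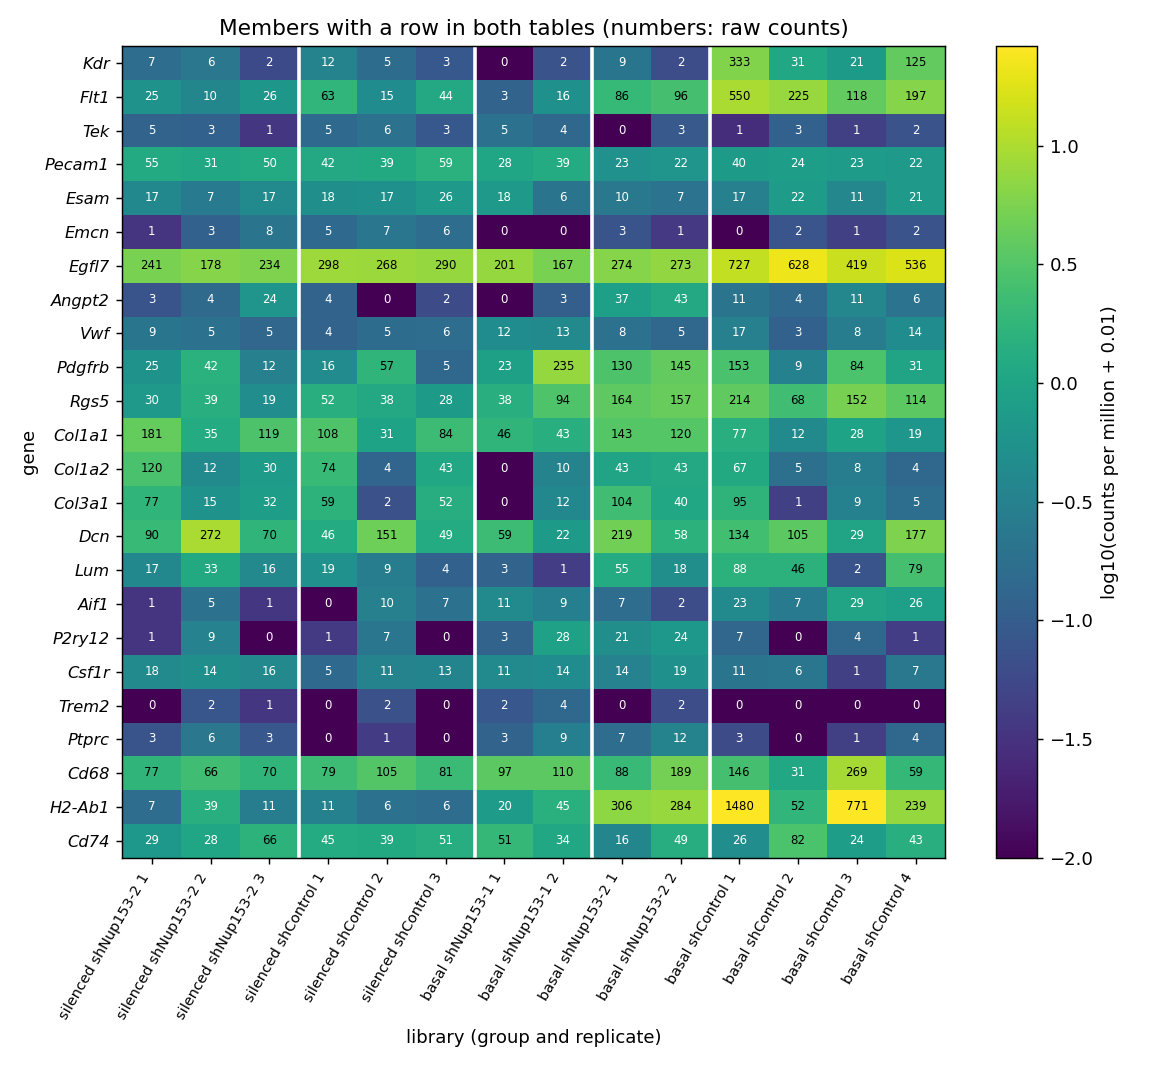
Raw counts (numbers) and log10(CPM + 0.01) (colour) of the 24 members with a row in both tables, by library, with silenced groups left of basal groups and knockdown left of control. Egfl7, Cd68, Dcn and Rgs5 had counts in every library, and H2-Ab1 ranged from 6 to 1480 counts.

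Kdr and Flt1 (both on the minus strand of chromosome 5 in GRCm38, at 75932827 to 75978458 and 147561604 to 147726011) encode receptors for VEGF. In CPM, every basal knockdown library and every silenced shControl library lay below every basal shControl library for both genes. The 300 bases around each start site (250 upstream and 50 downstream) are printed because these receptor genes moved furthest with shNup153-1 among the endothelial members. They are RefSeq sequences of GRCm38.p6, Flt1 from chr5:147725962-147726261 and Kdr from chr5:75978406-75978705, minus strand, with the ETS core GGAA (or its reverse complement TTCC) and the cyclic AMP response element TGACGTCA in capitals.
Flt1: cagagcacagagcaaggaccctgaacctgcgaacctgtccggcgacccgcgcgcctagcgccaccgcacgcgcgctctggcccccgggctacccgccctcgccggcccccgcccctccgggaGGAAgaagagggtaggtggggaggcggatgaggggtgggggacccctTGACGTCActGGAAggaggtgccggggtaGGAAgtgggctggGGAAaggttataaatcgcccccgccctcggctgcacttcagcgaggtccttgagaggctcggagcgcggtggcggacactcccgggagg
Kdr: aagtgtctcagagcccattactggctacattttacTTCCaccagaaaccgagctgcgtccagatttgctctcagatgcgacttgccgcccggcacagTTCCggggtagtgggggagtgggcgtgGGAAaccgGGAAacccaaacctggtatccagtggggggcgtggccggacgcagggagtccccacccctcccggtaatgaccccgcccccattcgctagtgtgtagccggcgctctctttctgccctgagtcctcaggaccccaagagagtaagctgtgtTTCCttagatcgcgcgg
The Flt1 window holds 1 TGACGTCA and 4 ETS cores and the Kdr window holds 0 and 5. TGACGTCA occurs on either strand in 1.79% of 32851 promoter windows and GGAA in 96%, and among the 20 members matched to the table only Flt1 holds TGACGTCA. Neither motif contains the other, and a match is a description of the letters only.

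Kdr, the main signalling receptor for VEGF, had 0 and 2 counts with shNup153-1 and 9 and 2 counts with shNup153-2, against 333, 31, 21 and 125 counts in basal shControl cultures. Each knockdown library was below each control library, and the controls themselves ranged from 0.711 to 5.91 CPM. The log2 fold change was -6.33 (SE 1.45, edgeR quasi-likelihood test, Benjamini-Hochberg adjusted p = 0.0243) with shNup153-1 and -4.44 (SE 1.14, edgeR adjusted p = 0.0488) with shNup153-2. Pooled over libraries, the ratio of shControl to knockdown was 101 (95% exact interval 27.8 to 835) from 2 counts with shNup153-1 and 25.7 (14.3 to 51.8) from 11 counts with shNup153-2, intervals that cover counting error only. With limma-voom neither passed (adjusted p = 0.0538 and 0.118).

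Flt1, the decoy-like VEGF receptor, had 3 and 16 counts with shNup153-1 and 86 and 96 counts with shNup153-2, against 550, 225, 118 and 197 counts with shControl at basal state. In CPM all knockdown libraries lay below all control libraries, at 0.315 ± 0.287 and 2.28 ± 0.457 CPM (SD, n = 2 each) against 6.96 ± 2.43 CPM (SD, n = 4). It fell with shNup153-1 (-4.48, SE 0.66, edgeR adjusted p = 0.00526), a call that held with each library left out in turn. With shNup153-2 its log2 fold change of -1.63 (SE 0.44) had an edgeR adjusted p of 0.0538. Between shNup153-2 and shNup153-1 the difference was 2.85 (SE 0.67, edgeR adjusted p = 0.0511).

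Egfl7, which encodes an extracellular matrix protein secreted by endothelium and hosts the microRNA miR-126 (chromosome 2, 26580014 to 26593120, plus strand), was the most abundant endothelial member. It had 201 and 167 counts with shNup153-1 and 274 and 273 counts with shNup153-2, against 727, 628, 419 and 536 counts with shControl at basal state. Its level was 6.44 ± 1.47 and 6.81 ± 0.828 CPM (SD, n = 2 each) against 16.5 ± 3.90 CPM (SD, n = 4), with no overlap. It fell by 1.37 with shNup153-1 (SE 0.31, edgeR adjusted p = 0.0223) and by 1.28 with shNup153-2 (SE 0.30, edgeR adjusted p = 0.0382) on the log2 scale. Antisense genes overlap 3.41% of its exon length and same-strand genes 9.41%, and no source used here states the strand setting of the counting.

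Angpt2, a ligand of the receptor Tek that loosens vessels for sprouting, differed between the hairpins. It had 0 and 3 counts with shNup153-1 and 37 and 43 counts with shNup153-2, against 11, 4, 11 and 6 counts with shControl at basal state. It rose with shNup153-2 (2.18, SE 0.44, edgeR adjusted p = 0.0228), while with shNup153-1 the value was -2.06 (SE 0.85, edgeR adjusted p = 0.144). The 80 counts of shNup153-2 against 3 of shNup153-1 gave a log2 difference of 4.23 (SE 0.84, edgeR adjusted p = 0.0322), in a comparison where 4.48% of 14529 genes passed. The value ranged from 3.38 to 8.18 with 1 library of either hairpin left out, and passed in 1 of these 4 fits. Over pooled libraries the ratio of shNup153-2 to shNup153-1 was 19.0 (95% exact interval 6.28 to 94.2, counting error only). Angpt2 (chromosome 8, 18690263 to 18741562, minus strand) lies within Mcph1 on the opposite strand, which stood at 0.45 (SE 0.20, edgeR adjusted p = 0.174) with shNup153-2. The part of Mcph1 reads in the Angpt2 counts was not tested.

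None of the remaining endothelial members with basal rows passed the threshold with either hairpin. Pecam1, the adhesion molecule CD31, had 28 and 39 counts with shNup153-1 and 23 and 22 counts with shNup153-2, against 40, 24, 23 and 22 counts with shControl, at 1.15 ± 0.156 and 0.559 ± 0.0519 CPM (SD, n = 2 each) against 0.756 ± 0.0594 CPM (SD, n = 4). In CPM it was above all controls with shNup153-1 and below all of them with shNup153-2, without passing the test (0.59, SE 0.32, edgeR adjusted p = 0.259 and -0.43, SE 0.37, edgeR adjusted p = 0.460). Esam, an adhesion molecule of endothelial junctions, stood at -0.29 (SE 0.63) and -1.30 (SE 0.59), and Vwf, the clotting factor stored by endothelium, at 0.59 (SE 0.54) and -0.80 (SE 0.63), none past the threshold. With shNup153-2 both Esam libraries (0.227 and 0.19 CPM) lay below all controls (0.302 to 0.760 CPM), as for Kdr and Flt1. With shNup153-1 the Esam libraries stood at 0.67 and 0.194 CPM. Tek, the angiopoietin receptor, had 0 to 5 counts in basal libraries and Emcn, a sialomucin of capillaries and veins, 0 to 3, too few to be tested. Summed over the 9 endothelial members the level was 9.02 ± 1.31 CPM with shNup153-1 and 11.2 ± 1.43 CPM with shNup153-2 (SD, n = 2 each), against 28.3 ± 5.17 CPM with shControl (SD, n = 4), most of it Egfl7.

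Among 21 further endothelial markers, Plvap, of the diaphragms of fenestrated endothelium, was the 1 of 10 tested that changed with shNup153-1 (1.23, SE 0.24, edgeR adjusted p = 0.0147). Mfsd2a, the lipid transporter of the blood-brain barrier, was the 1 of 10 that changed with shNup153-2 (-1.66, SE 0.30, edgeR adjusted p = 0.0167). Of 9 tested genes for VEGF and angiopoietin ligands and further receptors, the ligand gene Vegfb rose with shNup153-1 (0.97, SE 0.17) and with shNup153-2 (0.84, SE 0.16), with edgeR adjusted p of 0.00879 and 0.0207. The co-receptor gene Nrp2 fell with shNup153-1 (-1.87, SE 0.47, edgeR adjusted p = 0.0354).

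Over all members at basal state, 20 of the 24 with a row could be tested. With shNup153-1, 0 rose and 4 fell (Kdr, Flt1, Egfl7 and H2-Ab1), where 6.52% of 14529 genes rose and 7.05% fell. With shNup153-2, 3 rose (Angpt2, Col1a1 and P2ry12) and 2 fell (Kdr and Egfl7), where 5.91% of 19682 genes rose and 3.64% fell. The median log2 fold change over the tested members was -0.77 and -0.20 with the hairpins, beside -0.02 and -0.03 over all genes. Both comparisons use the same 4 shControl libraries. The counts rest on few libraries. With shNup153-1, 2 members passed without shControl replicate 4 and 1 (Flt1) without either knockdown library. With shNup153-2, Kdr lost its call without shControl replicate 1 (edgeR adjusted p = 0.0557), and Col1a1 and P2ry12 lost theirs without shControl replicate 3 (edgeR adjusted p = 0.0577 and 0.0650). No call of that hairpin, 0 of 5, held without shControl replicate 4 or without either knockdown library.

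**Figure D3:**
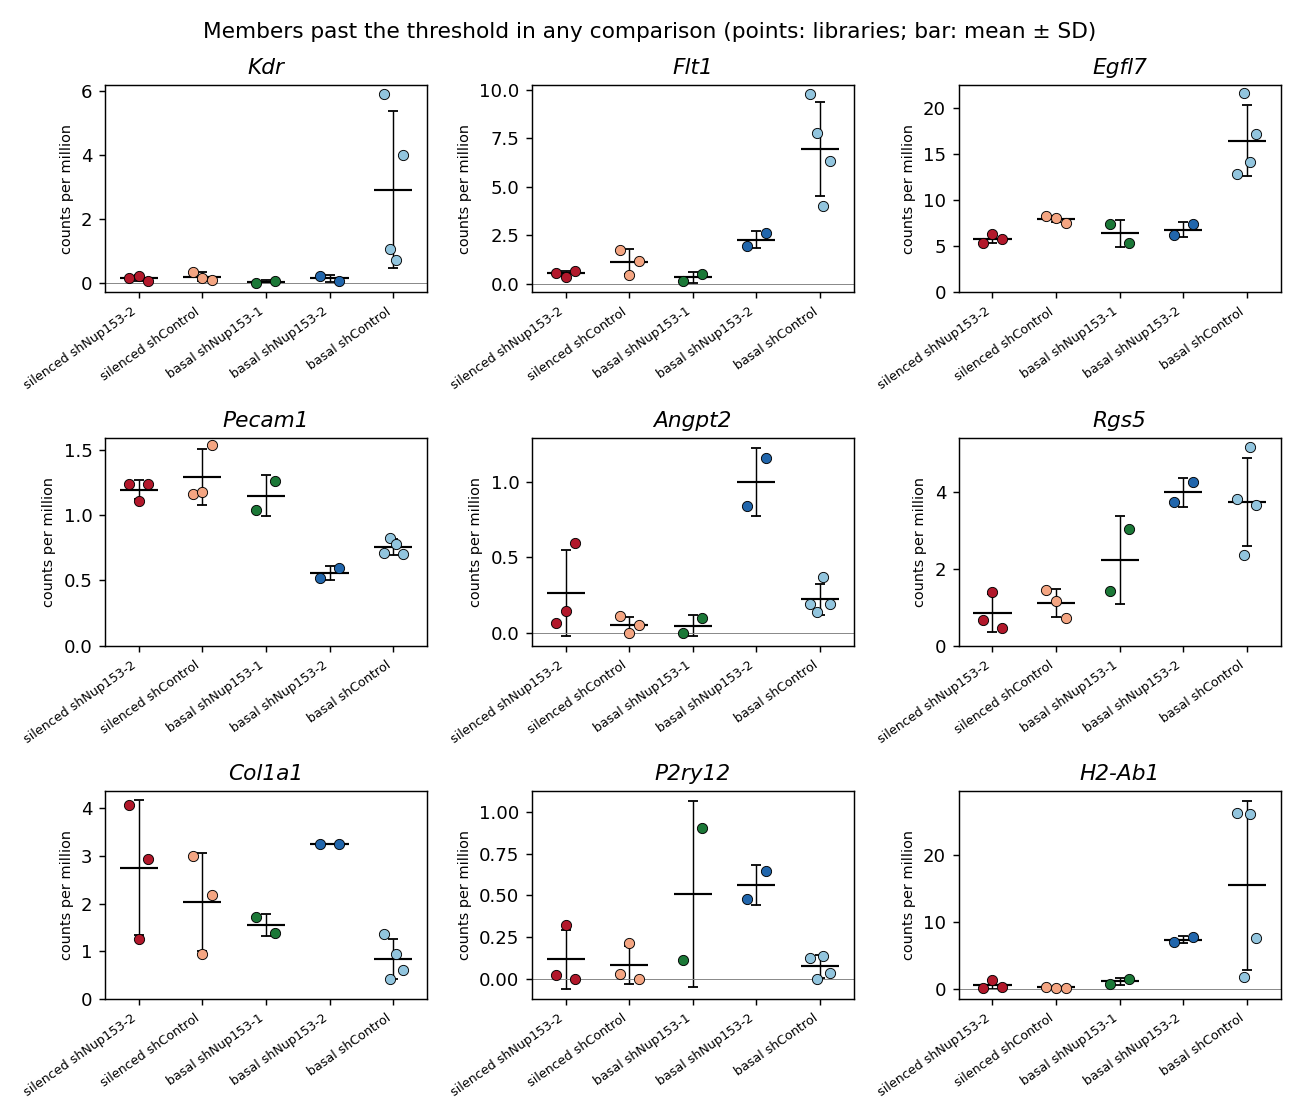
CPM for the 9 members past the threshold in any comparison, one panel per gene; points are libraries and bars the mean ± SD of each group, from silenced shNup153-2 on the left to basal shControl on the right. Kdr, Flt1 and Egfl7 are highest in the basal shControl libraries, and Kdr and H2-Ab1 spread widely among those 4 libraries.

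Mural members did not pass the threshold with either hairpin at basal state. Pdgfrb, the receptor that recruits pericytes, had 23 and 235 counts with shNup153-1 and 130 and 145 counts with shNup153-2, against 153, 9, 84 and 31 counts with shControl. The shNup153-1 pair lay further apart (0.856 and 7.61 CPM) than the controls (0.311 to 2.84 CPM). Both shNup153-2 libraries (2.95 and 3.93 CPM) lay above all control libraries. The values were 1.27 (SE 0.86, edgeR adjusted p = 0.366) with shNup153-1 and 1.03 (SE 0.66, edgeR adjusted p = 0.330) with shNup153-2. Rgs5, a regulator of G protein signalling used as a pericyte marker, had 38 and 94 counts with shNup153-1 and 164 and 157 counts with shNup153-2, against 214, 68, 152 and 114 counts with shControl. Its values were -0.75 (SE 0.38, edgeR adjusted p = 0.227) and 0.12 (SE 0.30, edgeR adjusted p = 0.810). Of 6 tested further mural markers, Mcam, an adhesion molecule of mural and endothelial cells, fell with shNup153-1 (-1.94, SE 0.37, edgeR adjusted p = 0.0121), and 0 changed with shNup153-2.

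Fibroblast members differed by gene. Col1a1, the first chain of type I collagen (chromosome 11, 94936224 to 94953042, plus strand), had 46 and 43 counts with shNup153-1 and 143 and 120 counts with shNup153-2, against 77, 12, 28 and 19 counts with shControl at basal state. It rose with shNup153-2 (1.95, SE 0.43, edgeR adjusted p = 0.0321), to 3.25 ± 0.00157 CPM (SD, n = 2) against 0.835 ± 0.418 CPM (SD, n = 4), and stood at 0.86 (SE 0.45, edgeR adjusted p = 0.245) with shNup153-1. In CPM, which leave out the TMM scaling of the test, the libraries of each hairpin lay above all control libraries. With shNup153-1 the margin was small, at 1.39 and 1.71 CPM against 1.37 CPM in the highest control.

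Col1a2, the partner chain, had 0 and 10 counts with shNup153-1 and 43 and 43 counts with shNup153-2, against 67, 5, 8 and 4 counts with shControl. Col3a1, of type III collagen, had 0 and 12 counts with shNup153-1 and 104 and 40 counts with shNup153-2, against 95, 1, 9 and 5 counts with shControl. A single control library, replicate 1, held most of the control counts of both genes. Their values with shNup153-2 were 1.18 (SE 0.80, edgeR adjusted p = 0.351) and 1.56 (SE 1.01, edgeR adjusted p = 0.330). Without shControl replicate 1 both passed the threshold. As that library was the highest control for both genes, leaving it out lowers the control level by construction. The share of all genes passing in that fit is not given here, so it is not counted as a result.

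Dcn, the collagen-binding proteoglycan decorin, had 59 and 22 counts with shNup153-1 and 219 and 58 counts with shNup153-2, against 134, 105, 29 and 177 counts with shControl. Lum, its relative lumican, had 3 and 1 counts with shNup153-1 and 55 and 18 counts with shNup153-2, against 88, 46, 2 and 79 counts with shControl. The collagens and the proteoglycans therefore did not rank the control libraries alike, since replicate 4 was highest in CPM for Dcn and Lum and replicate 1 for the 3 collagens. Lum stood at -4.34 (SE 1.38, edgeR adjusted p = 0.0719) with shNup153-1. Of 16 tested further fibroblast and meningeal genes, Col12a1, a collagen that associates with fibrils, rose with shNup153-2 (1.95, SE 0.50, edgeR adjusted p = 0.0486), and 0 changed with shNup153-1.

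Microglial members had few counts at basal state, apart from Cd68. Cd68, a lysosomal glycoprotein of macrophages that is not confined to microglia, had 97 and 110 counts with shNup153-1 and 88 and 189 counts with shNup153-2, against 146, 31, 269 and 59 counts with shControl. The values of 0.02 (SE 0.73, edgeR adjusted p = 0.992) and 0.03 (SE 0.74, edgeR adjusted p = 0.983) stand beside controls that ranged from 1.07 to 9.11 CPM. Csf1r, the receptor for the survival factors CSF1 and IL-34, had 11 and 14 counts with shNup153-1 and 14 and 19 counts with shNup153-2, against 11, 6, 1 and 7 counts with shControl. In CPM all knockdown libraries were above all control libraries, at 1.31 (SE 0.61, edgeR adjusted p = 0.192) and 1.27 (SE 0.64, edgeR adjusted p = 0.227), and an antisense neighbour, Hmgxb3, overlaps 15.1% of its exon length.

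P2ry12, the purinergic receptor of resting microglia (chromosome 3, 59216272 to 59262871, minus strand), had 3 and 28 counts with shNup153-1 and 21 and 24 counts with shNup153-2, against 7, 0, 4 and 1 counts with shControl. It rose with shNup153-2 (2.81, SE 0.72, edgeR adjusted p = 0.0487) and stood at 2.63 (SE 0.90, edgeR adjusted p = 0.0893) with shNup153-1. The gene lies within Med12l on the opposite strand, which itself rose with shNup153-2 (0.95, SE 0.22, edgeR adjusted p = 0.0347) to 72.0 ± 13.1 CPM (SD, n = 2) against 37.9 ± 8.11 CPM (SD, n = 4). Med12l stood at 0.38 (SE 0.29, edgeR adjusted p = 0.435) with shNup153-1. The part of Med12l reads in the P2ry12 counts was not tested.

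Aif1, which encodes the microglial protein IBA1, had 11 and 9 counts with shNup153-1 and 7 and 2 counts with shNup153-2, against 23, 7, 29 and 26 counts with shControl, at -0.79 (SE 0.64, edgeR adjusted p = 0.458) and -2.40 (SE 0.74, edgeR adjusted p = 0.0792). P2ry12 and Aif1 therefore stood in opposite directions with shNup153-2. Ptprc, the leukocyte antigen CD45, had 0 to 12 counts in basal libraries and Trem2, a lipid receptor of microglia, 0 to 4, and neither was tested. The summed level of the 6 members was 5.18 ± 0.639 CPM with shNup153-1 and 4.91 ± 2.55 CPM with shNup153-2 (SD, n = 2 each). With shControl it was 4.57 ± 3.90 CPM (SD, n = 4), so the groups overlapped. Most of each sum was Cd68, which averaged 3.586 CPM with shNup153-1, 3.558 with shNup153-2 and 3.665 with shControl. The sums therefore say little of the other microglial members.

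Of 11 tested further microglial and macrophage genes, 0 changed with shNup153-1. With shNup153-2 the Fc receptor gene Fcgr3 fell (-4.11, SE 0.73, edgeR adjusted p = 0.0161) and Olfml3, a secreted protein of microglia, rose (2.60, SE 0.49, edgeR adjusted p = 0.0190). Ligands of microglial receptors were tested on 8 genes. The complement gene C3 (-2.42, SE 0.62, edgeR adjusted p = 0.0359) and Il34, a neuronal ligand of the Csf1r receptor (-1.14, SE 0.31, edgeR adjusted p = 0.0454), fell with shNup153-1. Cx3cl1, the neuronal ligand of the Cx3cr1 receptor, rose with shNup153-2 (1.32, SE 0.23, edgeR adjusted p = 0.0144), and with 137 CPM per kb in that group it was the most abundant gene of its list.

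The antigen presentation members parted from each other. H2-Ab1, a beta chain of class II major histocompatibility complex (chromosome 17, 34257689 to 34269419, plus strand), had 20 and 45 counts with shNup153-1 and 306 and 284 counts with shNup153-2, against 1480, 52, 771 and 239 counts with shControl at basal state. It fell with shNup153-1 (-3.80, SE 1.03, edgeR adjusted p = 0.0439), to 1.10 ± 0.503 CPM (SD, n = 2) against 15.5 ± 12.6 CPM (SD, n = 4), and stood at -1.03 (SE 0.85, edgeR adjusted p = 0.443) with shNup153-2. The control libraries alone ranged from 1.80 to 26.3 CPM, and the shNup153-1 call held without shControl replicate 2 (edgeR adjusted p = 0.00572) but not without shControl replicate 1, 3 or 4 or either knockdown library (edgeR adjusted p 0.0570 to 0.226).

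Cd74, the invariant chain that escorts class II molecules, had 51 and 34 counts with shNup153-1 and 16 and 49 counts with shNup153-2, against 26, 82, 24 and 43 counts with shControl. Its values were 0.11 (SE 0.76, edgeR adjusted p = 0.945) and -0.73 (SE 0.81, edgeR adjusted p = 0.571), and the control library with most H2-Ab1 counts was not the one with most Cd74 counts. Partners of the same complex, chosen after values were seen, were low: H2-Eb1, another class II beta chain, had 10 and 18 counts with shNup153-1 and 9 and 7 with shNup153-2, against 24, 7, 6 and 9 with shControl. H2-Aa, the alpha chain that pairs with the H2-Ab1 product, had 0 counts in every silenced library and no basal row.

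Markers of other cells moved alongside at basal state. With shNup153-1, 8 of 11 tested oligodendrocyte lineage markers rose and 0 fell, with a summed level of 806 and 844 CPM against 110 to 322 CPM in shControl libraries, and S100b was the 1 of 10 astrocyte markers that rose. With shNup153-2, 0 of 7 tested oligodendrocyte lineage and 0 of 10 astrocyte markers passed the threshold. The summed astrocyte level was 1172 and 3213 CPM with shNup153-1 and 2297 and 2765 CPM with shNup153-2. It ranged from 451 to 2598 CPM in shControl libraries, a spread that limits what the test could call. Neuronal markers changed as well: Slc17a6, a vesicular glutamate transporter, fell with shNup153-2 (-2.02, SE 0.22, edgeR adjusted p = 0.00475), while Syt1, the calcium sensor of synaptic vesicles (1.40, SE 0.21, edgeR adjusted p = 0.00938), and Slc17a7 (0.88, SE 0.23, edgeR adjusted p = 0.0491) rose. With shNup153-1, Syt1 rose (0.98, SE 0.19, edgeR adjusted p = 0.0141) and Slc17a6 fell (-0.93, SE 0.21, edgeR adjusted p = 0.0238), of 12 neuronal markers tested with each hairpin. The part of these other cells in the members' values was not tested.

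In silenced cultures, shNup153-2 was set against shControl. None of the 15 members that could be tested passed the edgeR test, where 3.45% of 18965 genes did, and 1 had an unadjusted p under 0.05. That member was Egfl7, with 241, 178 and 234 counts in shNup153-2 cultures against 298, 268 and 290 counts in shControl cultures and no overlap in CPM (-0.47, SE 0.15, edgeR adjusted p = 0.140). DESeq2 called 1 member, Egfl7. With replicate number as a block, which the libraries' residuals bear out here, 2 of 15 members passed, where 21.9% of 18965 genes did: Egfl7 fell (-0.47, SE 0.13, edgeR adjusted p = 0.0418) and Dcn rose (0.75, SE 0.20, edgeR adjusted p = 0.0366). Dcn had 90, 272 and 70 counts with shNup153-2 against 46, 151 and 49 counts with shControl, higher within each replicate number while the groups overlapped.

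The other members gave values rather than calls under silencing. Flt1 had 25, 10 and 26 counts with shNup153-2 against 63, 15 and 44 counts with shControl (-1.11, SE 0.53, edgeR adjusted p = 0.303), and Kdr had 7, 6 and 2 counts against 12, 5 and 3, too few to be tested. Pecam1 had 55, 31 and 50 counts with shNup153-2 against 42, 39 and 59 counts with shControl (-0.13, SE 0.24, edgeR adjusted p = 0.824). Esam had 17, 7 and 17 counts with shNup153-2 against 18, 17 and 26 counts with shControl. Each Esam knockdown library lay below each control library in CPM. Angpt2 had 3, 4 and 24 counts with shNup153-2 against 4, 0 and 2 counts with shControl, so 1 library held most of the counts of the gene that had risen at basal state.

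Mural and fibroblast counts under silencing varied with the replicate. Pdgfrb had 25, 42 and 12 counts with shNup153-2 against 16, 57 and 5 counts with shControl, and Rgs5 had 30, 39 and 19 counts against 52, 38 and 28. Col1a1 had 181, 35 and 119 counts with shNup153-2 against 108, 31 and 84 counts with shControl, and Col1a2 had 120, 12 and 30 counts against 74, 4 and 43. Replicate 2 was lowest for these collagens and highest for Pdgfrb and Dcn in both groups. Col3a1 had 77, 15 and 32 counts with shNup153-2 against 59, 2 and 52 counts with shControl, and Lum 17, 33 and 16 counts against 19, 9 and 4.

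Microglial counts stayed low under silencing. Cd68 had 77, 66 and 70 counts with shNup153-2 against 79, 105 and 81 counts with shControl (-0.38, SE 0.25, edgeR adjusted p = 0.459). Csf1r had 18, 14 and 16 counts with shNup153-2 against 5, 11 and 13 counts with shControl, with each knockdown library above each control library in CPM (0.66, SE 0.40, edgeR adjusted p = 0.432). P2ry12 had 1, 9 and 0 counts with shNup153-2 against 1, 7 and 0 counts with shControl, and Aif1 had 1, 5 and 1 counts against 0, 10 and 7. H2-Ab1 had 7, 39 and 11 counts with shNup153-2 against 11, 6 and 6 counts with shControl, and Cd74 had 29, 28 and 66 counts against 45, 39 and 51. Of the further endothelial, mural, fibroblast, microglial and ligand lists, 0 tested genes passed, and of 12 neuronal markers Slc17a6 fell (-1.40, SE 0.14, edgeR adjusted p = 0.00915).

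**Figure D4:**
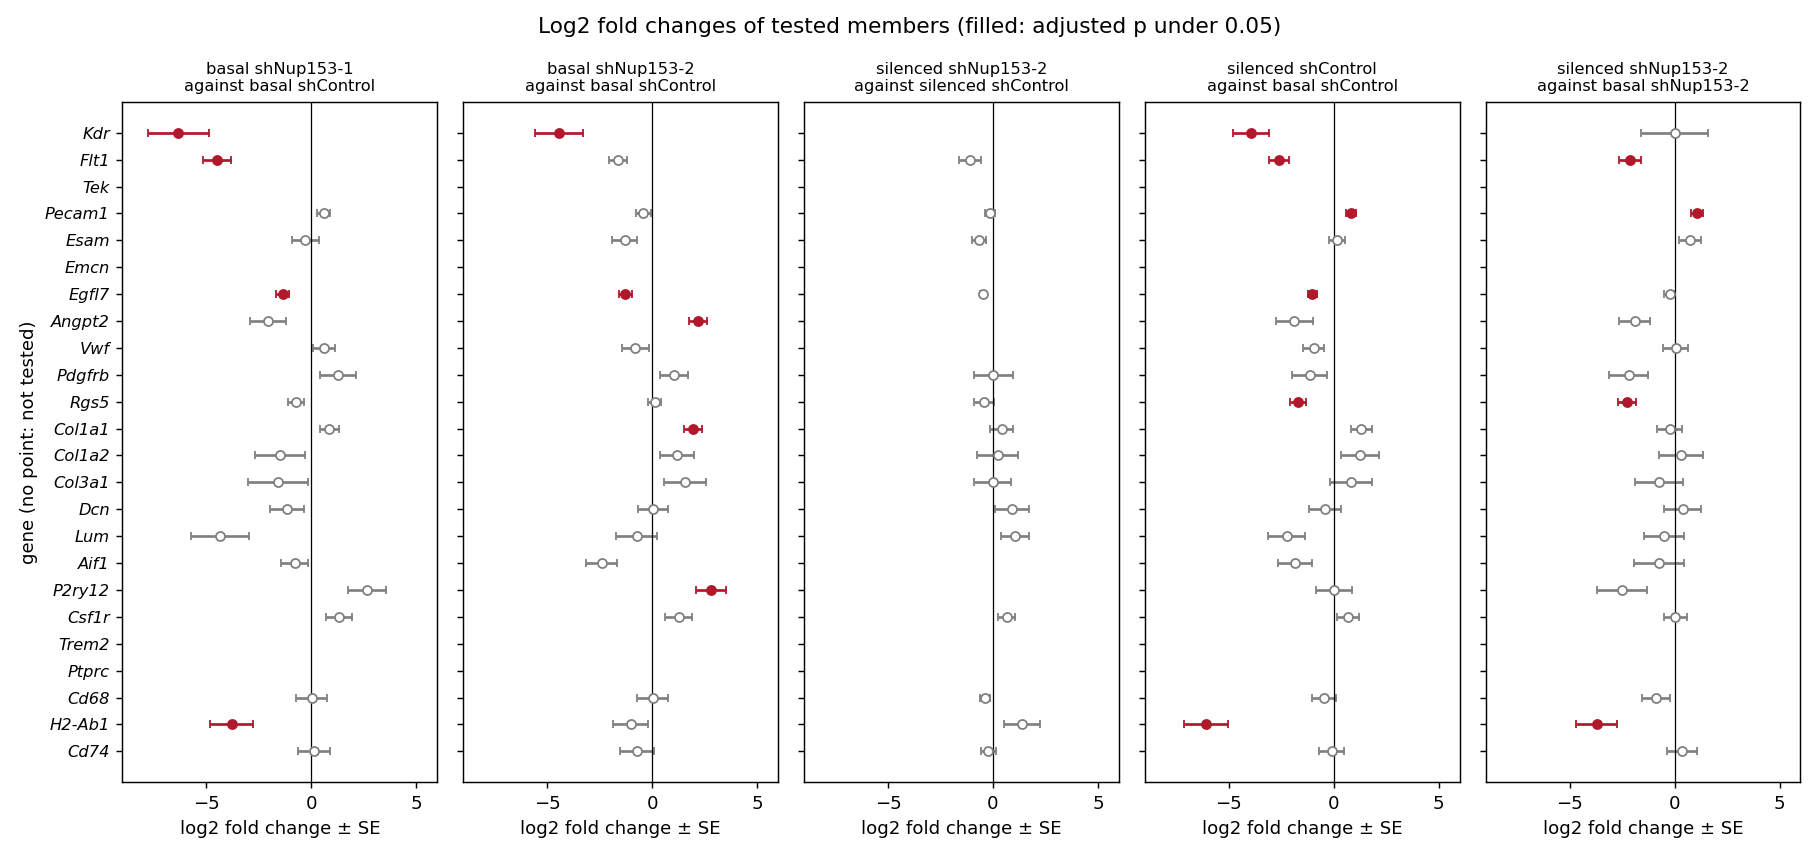
Log2 fold change ± SE of each tested member in 5 comparisons, with silenced or knockdown cultures over their control; filled red points passed an adjusted p of 0.05 in the edgeR test and genes without a point were not tested. Kdr stands lowest in both basal knockdown panels and H2-Ab1 lowest in the silenced against basal panels.

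Silenced cultures were then set against basal cultures carrying the same hairpin. The states were deposited in separate tables, so silencing, preparation and the making of the tables cannot be told apart. Among shControl cultures, 1 member rose (Pecam1) and 5 fell (Kdr, Flt1, Egfl7, Rgs5 and H2-Ab1) of 20 tested, where 6.09% of 20926 genes rose and 6.27% fell. Among shNup153-2 cultures, 1 rose (Pecam1) and 3 fell (Flt1, Rgs5 and H2-Ab1), where 9.39% rose and 12.3% fell. The median over the tested members was -0.71 and -0.37, beside -0.03 and 0.01 over all genes. Without silenced shControl replicate 3, 3 members passed among shControl cultures, and 1 (Rgs5) passed among shNup153-2 cultures without either basal library or without silenced replicate 1. Without silenced shNup153-2 replicate 3, Pecam1 and H2-Ab1 lost their calls (edgeR adjusted p = 0.0704 and 0.0774).

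H2-Ab1 fell furthest. It had 11, 6 and 6 counts in silenced shControl cultures against 1480, 52, 771 and 239 counts in basal ones (-6.08, SE 1.04, edgeR adjusted p = 0.00413), and 7, 39 and 11 counts in silenced shNup153-2 cultures against 306 and 284 counts in basal ones (-3.71, SE 0.97, edgeR adjusted p = 0.0216). No silenced library reached the lowest basal library of its hairpin. Cd74 did not accompany it, at -0.09 (SE 0.59, edgeR adjusted p = 0.938) and 0.38 (SE 0.72, edgeR adjusted p = 0.717).

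The VEGF receptors were lower in silenced shControl cultures, Kdr with 12, 5 and 3 counts against 333, 31, 21 and 125 in basal ones (-3.94, SE 0.86, edgeR adjusted p = 0.0134) and Flt1 with 63, 15 and 44 counts against 550, 225, 118 and 197 (-2.61, SE 0.47, edgeR adjusted p = 0.00523). Among shNup153-2 cultures Flt1 fell as well (-2.11, SE 0.53, edgeR adjusted p = 0.0190), while Kdr was already at 9 and 2 counts at basal state and had 7, 6 and 2 counts under silencing (0.00, SE 1.59, edgeR adjusted p = 0.999). Egfl7 fell among shControl cultures (-1.02, SE 0.21, edgeR adjusted p = 0.00958), to 7.98 ± 0.376 CPM (SD, n = 3) against 16.5 ± 3.90 CPM (SD, n = 4), and stood at -0.24 (SE 0.24, edgeR adjusted p = 0.478) among shNup153-2 cultures.

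Pecam1 went the other way from these receptors. It rose among shControl cultures (0.82, SE 0.24, edgeR adjusted p = 0.0432), to 1.29 ± 0.210 CPM (SD, n = 3) against 0.756 ± 0.0594 CPM (SD, n = 4), and among shNup153-2 cultures (1.08, SE 0.30, edgeR adjusted p = 0.0259), to 1.19 ± 0.0741 CPM (SD, n = 3) against 0.559 ± 0.0519 CPM (SD, n = 2). The groups did not overlap in either case. The first call was lost without any one of 6 of the 7 shControl libraries (edgeR adjusted p 0.0548 to 0.172). The second was lost without silenced shNup153-2 replicate 1 or replicate 3. Further endothelial markers did not all take the direction of Pecam1: Cd34, a sialomucin of endothelium and progenitors, fell in silenced cultures with shControl (-2.87, SE 0.22, edgeR adjusted p = 0.000102) and with shNup153-2 (-2.33, SE 0.24, edgeR adjusted p = 0.000314), as did Itm2a (-1.80, SE 0.25 and -1.28, SE 0.28, edgeR adjusted p = 0.00158 and 0.0108). Mfsd2a rose with shNup153-2 (1.21, SE 0.27, edgeR adjusted p = 0.0110).

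Rgs5 fell in silenced cultures with either hairpin, to 1.11 ± 0.358 CPM (SD, n = 3) against 3.74 ± 1.14 CPM (SD, n = 4) with shControl (-1.69, SE 0.38, edgeR adjusted p = 0.0143) and to 0.846 ± 0.485 CPM (SD, n = 3) against 3.99 ± 0.373 CPM (SD, n = 2) with shNup153-2 (-2.28, SE 0.43, edgeR adjusted p = 0.00572). The groups did not overlap. Pdgfrb stood at -1.15 (SE 0.82, edgeR adjusted p = 0.398) and -2.18 (SE 0.93, edgeR adjusted p = 0.103). Of 7 tested further mural genes, Mcam (-3.01, SE 0.28, edgeR adjusted p = 0.000273) and Myh11, the smooth muscle myosin (-0.98, SE 0.28, edgeR adjusted p = 0.0383), fell with shControl, and Mcam, Ndufa4l2 and Notch3, the Notch receptor of mural cells, fell with shNup153-2.

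Fibroblast and microglial members did not pass in either comparison of states. Of 16 tested further fibroblast and meningeal genes 0 changed with shControl, and 6 fell with shNup153-2, among them the collagen genes Col12a1 (-2.54, SE 0.61, edgeR adjusted p = 0.0155) and Col5a1 (-2.55, SE 0.67, edgeR adjusted p = 0.0221). Among the tested further microglial and macrophage genes, the nucleotide receptor gene P2ry6 fell with shControl (-8.06, SE 1.77, edgeR adjusted p = 0.0174). With shNup153-2, P2ry6 and Olfml3 fell and Cyth4 rose.

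Of the ligands, Vegfa (-2.76, SE 0.75, edgeR adjusted p = 0.0242), Vegfb, Vegfc and the co-receptor gene Nrp1 fell in silenced shNup153-2 cultures, and Pgf, placental growth factor, fell in silenced shControl cultures (-1.40, SE 0.37, edgeR adjusted p = 0.0283). Cx3cl1 rose in silenced shControl cultures (1.04, SE 0.23, edgeR adjusted p = 0.0130), and the complement genes C4b and C3 fell in silenced shNup153-2 cultures (-5.06, SE 1.19 and -2.10, SE 0.61, edgeR adjusted p = 0.0145 and 0.0306).

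Markers of other cells also differed between the states. Of 5 cycling genes, 4 rose with shControl and 5 with shNup153-2, with list medians of 4.03 and 4.52, and the summed level ranged from 10.8 to 73.3 CPM in the 6 silenced libraries and from 2.15 to 8.94 CPM in the 8 basal ones. The globin genes Hba-a1 and Hba-a2 rose in both comparisons, and Gfap, the astrocyte filament gene, fell (-5.96, SE 1.53 and -6.52, SE 1.60, edgeR adjusted p = 0.0263 and 0.0169). Of 12 oligodendrocyte lineage markers, 3 rose and 0 fell with shControl and 6 rose and 1 fell with shNup153-2, with list medians of 1.00 and 1.94. The neuronal genes Gad1 and Gad2, which encode the enzymes that make GABA, fell with shControl (-1.57, SE 0.25 and -0.95, SE 0.16, edgeR adjusted p = 0.00334 and 0.00355) and with shNup153-2 (-1.85, SE 0.29 and -1.41, SE 0.18, edgeR adjusted p = 0.00242 and 0.000769). Their part in the members' values was not tested.

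The difference between the effects of shNup153-2 under silencing and at basal state was tested for the 20 members in the joint fit. The edgeR test called 0 members, as it called 0% of 20926 genes, with 2 members and 2393 genes at an unadjusted p under 0.05. Those members were Kdr (3.94, SE 1.47, edgeR adjusted p = 0.367) and Egfl7 (0.78, SE 0.32, edgeR adjusted p = 0.393). DESeq2 called 285 genes, of which 0 were members. A change of effect with state was not detectable for these genes with this number of libraries.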

How the data were processed

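Per the submitters' processing notes, FastQC and featureCounts 2.0.1 were used with mm10. The library kit keeps strand per the labels, while no source used here states the aligner, annotation or strand setting. The authors deposited raw counts per gene symbol in a basal and a silenced table. Of the basal columns, 2 share a name and were not used, leaving 14 of the 16 labelled samples. An offset search along the table found the shNup153-1 columns displaced from line 16420. Their correlation with shControl across genes was 0.9755 in the lines used (a margin of 20 was left) and 0.0923 in the 9952 lines below the displacement. They entered only the fit of the basal groups over lines 1 to 16399.

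Counts were tested with edgeR 4.0.16 in R 4.3.3 (filterByExpr with a minimum count of 10, TMM scaling, quasi-likelihood F test, Benjamini-Hochberg adjustment over all genes tested, threshold 0.05). The 3 basal groups were fitted together for shNup153-1, each table's shNup153-2 and shControl libraries for shNup153-2, and 12 libraries over shared symbols for the states. Each SE of an edgeR fit was back-computed as the absolute log2 fold change over the square root of the F statistic. Where there was little change, it is a ratio of small values. CPM are counts over the library total, scaled to 1000000, without TMM. Exon lengths and coordinates are from GENCODE vM21. The fits were tested on simulated counts. DESeq2 1.42.0, limma-voom 3.58.1, no filter, other sample sets, a replicate block and each library left out were alternatives.

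Whether equal replicate numbers pair libraries was checked by correlating residuals across genes. Silenced libraries of the same number correlated at 0.29, 0.57 and 0.62, and the labels do not say that numbers mark a litter.

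Members and lists were chosen with earlier results of these data known. Lists come from general knowledge of cell types. Counts per library are printed for members past the threshold in any comparison, for up to 4 of the most abundant members per cell type and for all mural and antigen presentation members. Other members named were added. From other lists, up to 4 genes past the threshold with the smallest p are named. A result on a gene of these other lists is not reported here. The comparison between hairpins was chosen after seeing the data.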

Additional observations from a re-analysis of the deposited data

Results flagged for a closer look

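In basal shControl cultures replicate 1 stood far above the other libraries for Col1a2, at 1.19 CPM against 0.128 to 0.271, and for Col3a1, at 1.69 CPM against 0.0346 to 0.305. Replicate 3 stood below the others for Csf1r, at 0.0339 CPM (1 count) against 0.195 to 0.224 CPM (6 to 11 counts). These were 3 of 29 values examined in that group, and chance marks about 1 in 20 groups.

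Pecam1 lay above all basal controls with shNup153-1 and below all of them with shNup153-2. The difference of shNup153-2 from shNup153-1 was -1.01 on the log2 scale (edgeR adjusted p = 0.145). Angpt2 also lay on opposite sides, with a difference of 4.23 (edgeR adjusted p = 0.0322) that was lost without shNup153-2 replicate 1 or 2 or without shNup153-1 replicate 1 (edgeR adjusted p 0.174 to 0.182).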

How the results depend on the processing

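Called members kept their direction in all 209 alternatives tried over 20 member and comparison pairs, and 65 of these no longer passed the threshold. DESeq2 called 3146 genes with shNup153-1 (1971 with edgeR), 3624 with basal shNup153-2 (1880), 1845 with silenced shNup153-2 (654), 285 for the interaction (0) and 2114 between the hairpins (651), and 1 member with silenced shNup153-2 and 4 between the hairpins. With limma-voom 2 members passed with shNup153-1 and 1 gene for the interaction, and without a filter 3 genes did for the interaction. The share of all genes passing limma-voom with shNup153-1 is not given here, so those 2 members are not set against it. The fit of only the groups compared called 1203 genes with shNup153-1.

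With replicate number as a block, 0 members and 0 genes passed with shNup153-1 and between the hairpins. Libraries of the same number did not pair for shNup153-1 and shControl (residual correlations -0.58 and -0.65). Pairing between the hairpins was not checked. With basal shNup153-2 the block called 6 members, Flt1 among them (edgeR adjusted p = 0.00154), though residual correlations were 0.24 and 0.05. Between states the block called 5 with shControl and 4 with shNup153-2. Pecam1 was lost in both (edgeR adjusted p = 0.103 and 0.0536) and Angpt2 was added with shNup153-2 (0.0418). Residual correlations between states were 0.10, -0.21 and -0.21 for shControl and 0.10 and 0.18 for shNup153-2. Pairing was therefore not borne out in these comparisons. Shares of all genes are not given for these block counts, so they are not a result about the members as a set. With silenced shNup153-2 the block gave 2 members and 4161 genes, and for the interaction 2 genes. The causes were not tested.

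With each library left out, called members ranged from 1 to 4 with shNup153-1 (all genes 356 to 2050), 0 to 6 with basal shNup153-2 (15 to 2211), 0 to 0 with silenced shNup153-2 (4 to 659), 3 to 6 and 1 to 5 between states with shControl (1069 to 3426) and shNup153-2 (841 to 4003), 0 to 0 for the interaction (0 to 12) and 0 to 2 between the hairpins (0 to 500). Nup153 ranged from -2.08 to -1.36, -2.63 to -2.34 and -2.55 to -2.28 with shNup153-1, basal and silenced shNup153-2. Leaving out 1 library of a pair leaves a lone library that is assumed to vary like the others. Counts were under 10 in most libraries for 19 members: Kdr, Angpt2 and P2ry12, which were called, Tek, Emcn, Vwf, Aif1, Trem2, Ptprc and the 10 without a basal row.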

Other observations

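Over the 12 libraries without shNup153-1, the genes whose log2 CPM followed Egfl7 most closely among 20926 were Ubald1 (Pearson r 0.978), Cited1 (0.978), Gm14026 (0.978), Myh11 (0.977) and Rraga (0.971). Those closest to Cd68 were Sf3b1 (0.934), Zscan26 (0.924), Klf4 (0.921), Gm9917 (0.919) and Myo9b (0.918). These libraries share 2 tables and 2 states, the genes were picked for their correlation, and the values are a description.

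Ciita, the transactivator of class II genes, was named after values were seen. It had 0 to 4 counts in silenced shNup153-2 libraries, 0 to 1 in silenced shControl libraries, 4 to 9 with basal shNup153-1, 4 to 11 with basal shNup153-2 and 3 to 7 with basal shControl.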
